A study of Mus musculus with 6 samples.

Results

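The 7 genes described here are long noncoding RNAs that stay mostly in the nucleus: Malat1, Neat1, Meg3, Rian, Mirg, Miat and Snhg11. They were taken by gene symbol from the 32285 genes of 6 single-nucleus RNA-seq libraries, and were chosen by measured values of these data: their high share of the UMIs, their levels by cell type, and for Malat1 its difference in pericytes. The libraries came from the cortex of 7.5-month-old mice of the 5xFAD strain, a transgenic model of amyloid deposition, and every mouse carried the 5xFAD transgenes. The groups were 5xFAD-M28L and 5xFAD-P522R, which also carry the M28L or the P522R variant of Plcg2, the phospholipase C that acts below TREM2 in microglia, and 5xFAD without either variant, with 2 libraries each, numbered 2 and 3. The M28L variant is known in human genetics as a risk variant and the P522R variant as a protective one for Alzheimer's disease. Nuclei were sorted as negative for NeuN, a protein of most neuronal nuclei, and both sexes were mixed in each library. No mice without the 5xFAD transgenes were compared here.

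Long noncoding RNAs of this kind act as RNA and not through a protein. Malat1 gathers in nuclear speckles, the stores of splicing factors, and Neat1 is the scaffold on which paraspeckles are built. Meg3, Rian and Mirg are expressed from the maternal copy of the imprinted Dlk1-Dio3 region, and carry microRNAs and small nucleolar RNAs in their introns and exons. Miat, also called Gomafu, forms its own nuclear domains and is known from neurons and retina, and Snhg11 is a host gene of small nucleolar RNAs.

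On the GRCm38 build of the mouse genome, with GENCODE gene models, Malat1 lay on chr19:5795690-5802672 and Neat1 on chr19:5824708-5845478, both on the minus strand and 22035 bases apart. Meg3 lay on chr12:109541001-109571726, Rian on chr12:109603940-109661716 and Mirg on chr12:109729764-109749460, all on the plus strand, with gaps of 32213 and 68047 bases. Miat lay on chr5:112213228-112229395 on the minus strand, and Snhg11 on chr2:158375638-158386145 on the plus strand. Snhg11 is the only member that this annotation classes as protein coding. Genes on the opposite strand overlap Malat1 (Gm37376), Meg3 (Gm26906), Miat (Gm26953) and Mirg (Gm24321); how the authors' counting treated strand is not given in the sources used here. The longest annotated transcripts of Malat1 and Neat1 are single exons of 6983 and 20771 bases.

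The microRNAs are shown because they tie Meg3, Rian and Mirg together as hosts on 1 strand of chromosome 12. RefSeq (GRCm38.p6) placed 3 mature microRNAs in Meg3, 6 in Rian and 26 in Mirg, and none in the other 4 members; those in Mirg had 25 different seeds. The only seed found more than once in Mirg was GGUUGCC, in miR-453 and miR-496a-5p. Examples follow 5′ to 3′, with the seed (bases 2 to 8) in capitals. They lie on chr12:109563710-109563731, chr12:109618305-109618326, chr12:109734145-109734166, chr12:109735669-109735692, chr12:109739132-109739152 and chr12:109743764-109743784, in this order.
mmu-miR-770-5p, in Meg3: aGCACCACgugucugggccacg
mmu-miR-370-3p, in Rian: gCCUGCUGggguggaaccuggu
mmu-miR-134-5p, in Mirg: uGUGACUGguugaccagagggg
mmu-miR-453, in Mirg: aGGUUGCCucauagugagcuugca
mmu-miR-496a-5p, in Mirg: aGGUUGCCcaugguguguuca
mmu-miR-410-3p, in Mirg: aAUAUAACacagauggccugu
The libraries counted the long host RNAs and not these mature microRNAs, which are too short for the kit.

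The 3′ kit captures RNA on runs of A, and such runs also occur inside transcripts, as in these examples. Of the longest transcripts of 10155 long noncoding genes, 8.63% held a run of at least 10. Malat1-201 held 1 run, of 12 bases, 298 bases before its end (chr19:5795968-5796019, minus strand). Rian-201 held 1 run of 15 bases (chr12:109652209-109652263, plus strand). Capitals mark the run.
Malat1: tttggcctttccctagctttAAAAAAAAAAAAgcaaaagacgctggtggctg
Rian: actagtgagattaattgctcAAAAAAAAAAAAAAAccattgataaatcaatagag
How many UMIs came from such runs was not measured, and levels are compared below for 1 gene at a time between cell types or groups, not between genes.

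RefSeq promoter windows, 250 bases before to 50 bases after the start, were found for 6 of 7 members. They were searched on both strands for TGACGT (the core of the CREB and ATF site), TATAAA and CCAAT, in capitals below. TGACGT had 2 matches each in Malat1 (chr19:5802623-5802922, minus strand) and Meg3 (chr12:109540746-109541045, plus strand), and 7.51% of 32851 windows held at least 1. In Meg3 both matches are the same palindrome, TGACGTCA, read on each strand, and 2 overlapping matches of TATAAA and 1 of CCAAT stand beside it; 13.6% and 37.4% of all windows held these motifs. Rian (chr12:109603695-109603994, plus strand), which was highest in the same cell type as Meg3, held none of the 3 motifs, and neither did Miat or Snhg11. RefSeq starts can differ from the gene models above: the window of Mirg lies inside the gene as GENCODE places it, and is not described.
Malat1 promoter: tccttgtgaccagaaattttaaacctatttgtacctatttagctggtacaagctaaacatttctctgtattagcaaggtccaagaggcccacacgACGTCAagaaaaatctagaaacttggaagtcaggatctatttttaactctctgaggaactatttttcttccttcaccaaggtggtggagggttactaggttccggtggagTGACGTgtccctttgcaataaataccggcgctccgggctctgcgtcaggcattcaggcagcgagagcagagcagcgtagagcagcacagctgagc
Meg3 promoter: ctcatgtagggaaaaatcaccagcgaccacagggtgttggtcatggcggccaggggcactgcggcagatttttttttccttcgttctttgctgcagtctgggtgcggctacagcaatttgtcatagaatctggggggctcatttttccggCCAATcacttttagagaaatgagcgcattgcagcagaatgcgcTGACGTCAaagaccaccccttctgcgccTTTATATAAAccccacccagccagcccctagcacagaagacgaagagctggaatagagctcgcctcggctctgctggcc
Rian promoter: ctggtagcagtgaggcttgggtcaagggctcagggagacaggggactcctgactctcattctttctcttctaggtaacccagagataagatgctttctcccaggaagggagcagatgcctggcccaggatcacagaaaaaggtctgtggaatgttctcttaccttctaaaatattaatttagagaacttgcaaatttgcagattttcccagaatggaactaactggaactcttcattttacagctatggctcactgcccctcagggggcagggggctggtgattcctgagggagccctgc
A match or its lack in these windows says nothing on whether a factor binds.

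The 6 libraries held 9269 to 13783 barcodes and 53326947 to 72288942 UMIs, with medians of 3842 to 4972 UMIs per nucleus. After filters and removal of 2566 called doublets, 60085 nuclei remained and 50859 lay in clusters with a cell type name. Clusters were made without the 7 genes, and 10 types had at least 20 nuclei in every library. These were, with their nuclei over all libraries, oligodendrocyte-like (25456), microglia-like (8037), oligodendrocyte precursor-like (6171), neuron-like (5152), astrocyte-like (3271), fibroblast-like (925), pericyte-like (499), border macrophage-like (481), endothelial cell-like (455) and committed oligodendrocyte precursor-like (319) nuclei. The neuron-like nuclei are those left after the sort, so their number says nothing on the tissue. 5xFAD-P522R replicate 3 gave as few as 24 endothelial and 35 pericyte nuclei. Its file header names another version of Cell Ranger (5.0.1) than the other 5 (6.1.2). Pairs of libraries shared 20 to 71 barcodes, at most 0.751% of a library.

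The 7 RNAs together took 4.19% to 5.56% of all UMIs of a library. Over all libraries, Malat1 had 17173184 UMIs, Meg3 607099, Neat1 289622, Snhg11 239472, Rian 70175, Miat 18815 and Mirg 12562. Levels are given below as UMIs per 10000 UMIs of a cell type, as the mean ± SD over the 6 libraries. They describe the pattern the genes were chosen for and carry no test between cell types.

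Malat1 was present in all nuclei and at high levels in every cell type. Its mean was highest in pericyte-like nuclei at 701 ± 134 UMIs per 10000, followed by astrocyte-like (617 ± 89.3), fibroblast-like (611 ± 78.0) and oligodendrocyte-like nuclei (593 ± 74.5). Lower levels were found in endothelial (427 ± 81.3), border macrophage (379 ± 53.9) and neuron-like nuclei (335 ± 51.0) and in committed oligodendrocyte precursors (334 ± 82.5). Oligodendrocyte precursors (276 ± 41.4) and microglia (259 ± 42.3) were lowest. Neighbours in this order overlapped in range throughout, and within libraries part of the order was steadier. Pericytes stood above astrocytes in 5 of 6 libraries, oligodendrocytes above endothelial cells in 6 of 6, and oligodendrocyte precursors above microglia in 5 of 6. Astrocytes above fibroblasts, fibroblasts above oligodendrocytes and neurons above committed oligodendrocyte precursors held in 4 of 6 each.

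Per nucleus the order was another one. Neuron-like nuclei, which have the most RNA, averaged 523 Malat1 UMIs, against 475 in astrocytes, 267 in pericytes, 244 in oligodendrocytes and 103 in microglia. Single nuclei followed the summed values: the median nucleus gave Malat1 5.76% to 8.87% of its UMIs in pericytes, depending on the library, and 1.91% to 3.10% in microglia. The share depended little on depth in most types, with 616, 621 and 615 UMIs per 10000 in astrocytes split into 3 equal groups from shallow to deep. In committed oligodendrocyte precursors it was 252 in the shallow and 373 in the deep group, and in pericytes 744 and 672, each in the same direction in all 6 libraries. In mature oligodendrocytes Malat1 stood at 593 per 10000, against 276 in their precursors.

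**Figure D1:**
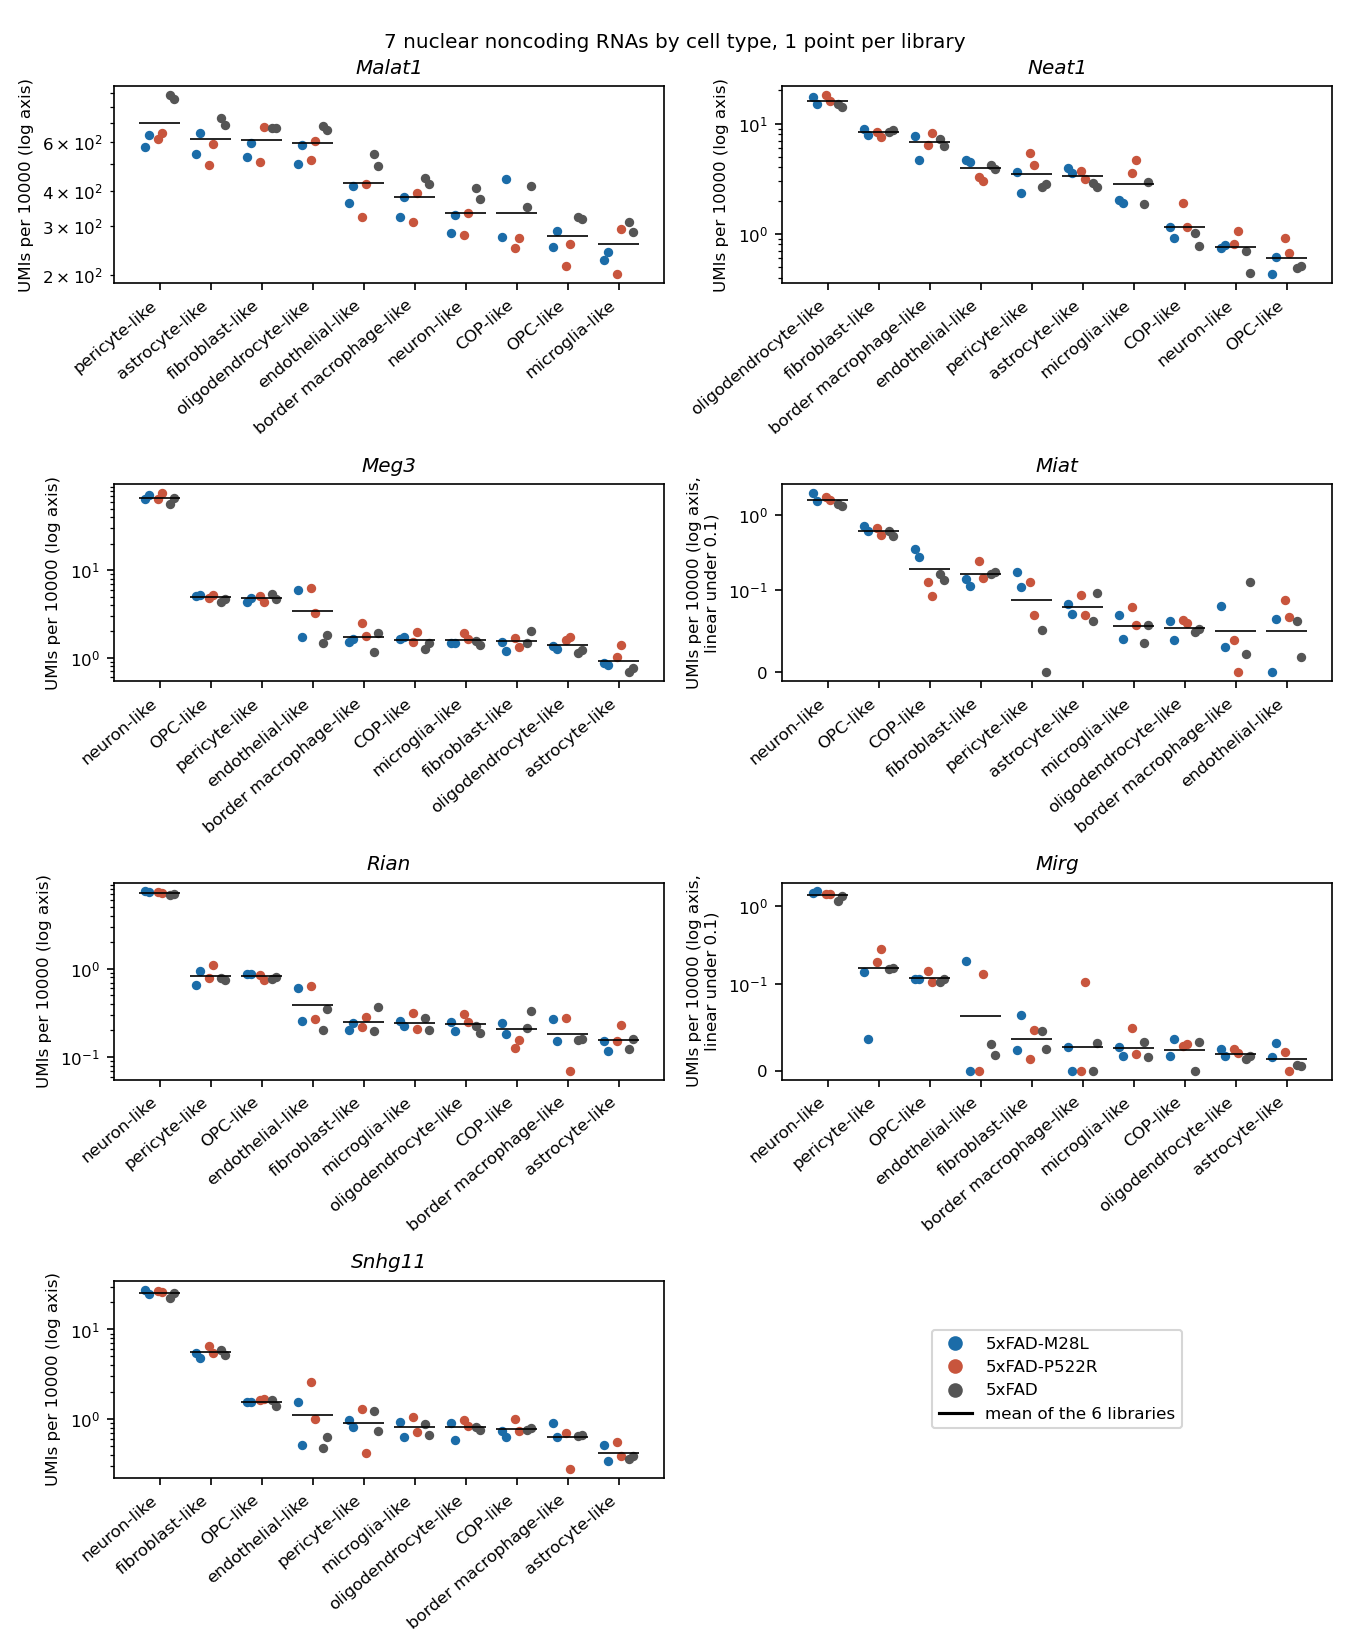
UMIs per 10000 UMIs (log axes, linear under 0.1 where a library is at 0) of the 7 RNAs in 10 cell types, 1 point per library, coloured by group, with a line at the mean of the 6 libraries and types ordered by that mean. Neat1 was highest in oligodendrocyte-like nuclei, Meg3, Rian, Mirg, Miat and Snhg11 in neuron-like nuclei, and Malat1 varied least between types.

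Neat1 was an RNA of mature oligodendrocytes in this sort. Oligodendrocyte-like nuclei had 17.5 and 15.0 UMIs per 10000 in the 5xFAD-M28L libraries, 18.2 and 15.9 in the 5xFAD-P522R libraries and 15.1 and 14.2 in the 5xFAD libraries. No other type reached this range. Fibroblasts had 8.32 ± 0.522, border macrophages 6.74 ± 1.25, endothelial cells 3.92 ± 0.682, pericytes 3.52 ± 1.17, astrocytes 3.33 ± 0.517 and microglia 2.82 ± 1.12, and ranges overlapped between neighbours from fibroblasts down. Neat1 was low in committed oligodendrocyte precursors (1.15 ± 0.392), neurons (0.755 ± 0.198) and oligodendrocyte precursors (0.606 ± 0.177). Along the lineage it thus had its lowest mean of the 10 types in the precursors and its highest in the mature cells.

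With each nucleus thinned to 1000 UMIs, 71.0% of oligodendrocyte-like nuclei had a Neat1 UMI (93.0% without thinning), against 5.50% of oligodendrocyte precursors (31.4% without thinning). Within the oligodendrocytes, the cluster led by the interferon-induced genes Rsad2 and Ifit1 had 20.1 ± 3.49 Neat1 UMIs per 10000. The 2 large clusters had 18.1 ± 1.71 and 14.2 ± 1.55, and a cluster led by mitochondrial transcripts 12.4 ± 2.09. Fibroblasts fell into 2 clusters: the one led by Slc47a1, a transporter gene, had 14.6 Neat1 UMIs per 10000 over all libraries, and the one led by Slc6a13, a GABA transporter gene, 5.95. In microglia, the cluster that holds the plaque-state genes Lilrb4a and Mamdc2 had 3.91 over all libraries (2.40 to 5.40 by library). The other had 1.67 (1.36 to 2.30). Called doublets, removed here, were 5.54% and 0.42% of these 2 clusters, and the part of oligodendrocyte RNA in the values was not tested.

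Meg3 marked the neurons that the sort had left. Neuron-like nuclei had 65.6 and 73.1 UMIs per 10000 in 5xFAD-M28L, 65.4 and 75.7 in 5xFAD-P522R and 56.9 and 65.9 in 5xFAD libraries. No other type reached this range; the highest value outside neurons was 6.27, in the endothelial nuclei of 1 library. Oligodendrocyte precursors (4.89 ± 0.361) and pericytes (4.78 ± 0.422) came next and overlapped each other. Endothelial nuclei followed at 3.41 ± 2.19, where 2 libraries (5.97 in 5xFAD-M28L replicate 2 and 6.27 in 5xFAD-P522R replicate 2) stood above the other 4 (1.47 to 3.22). The remaining types averaged 0.928 to 1.74.

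Rian and Mirg, its neighbours on chromosome 12, were also highest in neurons, at lower UMI counts. Rian averaged 7.28 ± 0.232 UMIs per 10000 in neurons, 0.839 ± 0.161 in pericytes and 0.821 ± 0.0556 in oligodendrocyte precursors, and the remaining types averaged 0.156 to 0.387. Mirg averaged 1.39 ± 0.132 in neurons, 0.160 ± 0.0779 in pericytes and 0.118 ± 0.0142 in oligodendrocyte precursors, and the remaining types averaged 0.0134 to 0.0629, with as few as 5 UMIs in all border macrophages. Pericytes and oligodendrocyte precursors thus ranked next after neurons for all 3 RNAs of the imprinted region, and neither Snhg11 nor Miat had pericytes in that place.

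The proportions of the 3 RNAs to each other varied less between types than their levels, and were not the same in all types. Per 100 Meg3 UMIs, neurons had 10.9 ± 0.999 Rian UMIs, oligodendrocyte precursors 16.8 ± 1.34 and pericytes 17.7 ± 4.14, and the other types averaged 10.7 to 17.1. Mirg stood at 2.08 ± 0.126 per 100 Meg3 UMIs in neurons, 2.42 ± 0.332 in oligodendrocyte precursors and 3.40 ± 1.79 in pericytes. Free RNA from neurons in the droplets would carry the neuronal proportion into every type, and its part in the low levels of glia was not tested. A list of 15 abundant neuronal transcripts had 399 UMIs per 10000 in neurons, 197 in oligodendrocyte precursors, 25.1 in pericytes and 12.9 in oligodendrocytes. Per 100 UMIs of that list, Meg3 had 16.9 ± 2.02 in neurons, 19.4 ± 3.20 in pericytes, 10.7 ± 0.631 in oligodendrocytes and 2.48 ± 0.214 in oligodendrocyte precursors, which express several genes of the list themselves.

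Miat and Snhg11 shared the neuronal peak and differed in the second place. Miat had 1.61 ± 0.230 UMIs per 10000 in neurons and 0.617 ± 0.0751 in oligodendrocyte precursors, and both ranges were separate from the next type. It was at 0.189 ± 0.0995 in committed oligodendrocyte precursors and at 0.0540 ± 0.00932 in mature oligodendrocytes, so along the lineage its order was opposite to that of Neat1. Snhg11 had 25.6 ± 1.81 in neurons and 5.57 ± 0.616 in fibroblasts, again with ranges separate from the next type, and 1.57 ± 0.0961 in oligodendrocyte precursors. The fibroblast values were 5.49 and 4.80 in 5xFAD-M28L, 6.59 and 5.52 in 5xFAD-P522R and 5.85 and 5.16 in 5xFAD libraries. Both fibroblast clusters had it, at 5.93 (Slc6a13) and 4.72 (Slc47a1) over all libraries.

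Fibroblasts had 370 ± 60.2 Snhg11 UMIs per 100 Meg3 UMIs, against 18.9 to 59.7 on average in the 9 other types. After thinning to 1000 UMIs, 39.3% of fibroblast nuclei had an Snhg11 UMI (81.7% without thinning), against 70.1% of neurons (89.0%), 8.04% of oligodendrocytes (27.1%) and 4.40% of astrocytes (26.9%). For Meg3 the thinned shares were 92.6% of neurons (97.8% without thinning), 38.0% of pericytes (68.1%), 37.9% of oligodendrocyte precursors (94.5%), 13.2% of oligodendrocytes (39.2%) and 8.80% of astrocytes (41.8%). For Miat they were 11.9% of neurons (51.5%), 5.66% of oligodendrocyte precursors (39.2%) and 0.563% of oligodendrocytes (2.17%).

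Neurons were not uniform for these RNAs. The 10 neuron-like clusters ranged over all libraries from 16.2 Meg3 UMIs per 10000 in a cluster led by 2610307P16Rik, Igfbpl1 and St8sia2 to 106 in the cluster led by Vip, a neuropeptide of cortical interneurons. Clusters 15 and 26, with 73.6 and 70.4, also had the most Snhg11 after the Vip cluster, at 30.5 and 31.4, against 38.3 there. The Drd2 cluster had 54.5 Meg3 and 20.4 Snhg11 UMIs per 10000, and the cluster led by Stac and Drd3 61.0 and 8.51. The 2610307P16Rik cluster stood apart: it had 0.619 Snhg11 UMIs per 10000, 4.05 ± 0.971 per 100 Meg3 UMIs, where the other 9 averaged 14.2 to 50.9. It also had the most Miat of the neuron-like clusters, 2.75 per 10000, beside 2.58 and 2.27 in clusters 15 and 26 and 0.0769 to 1.02 in the others.

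Over the neuron-like clusters, Rian ranged from 10.1 ± 0.948 UMIs per 100 Meg3 UMIs in the Vip cluster to 19.3 ± 2.86 in the 2610307P16Rik cluster, while Snhg11 ranged from 4.05 to 50.9 and Miat from 0.197 to 17.2 on average. From nucleus to nucleus within a cluster, Spearman's rho between the shares of Meg3 and Rian had a median over libraries of 0.498 in cluster 15 and 0.602 in the Vip cluster. Between Meg3 and Snhg11 it was 0.502 and 0.422, and between Meg3 and Malat1 -0.0403 and -0.184. For Meg3 and Malat1 it was lower in the Drd2 cluster (-0.320, 5 libraries) and cluster 26 (-0.412, 4 libraries). In the cluster led by B020031H02Rik it was -0.429, from 1 library. These are descriptions of nuclei that share a library, and shares of 1 total are not independent. Neuron-like nuclei with more RNA had more of it as Meg3: 38.9 ± 9.83, 61.2 and 74.4 ± 7.20 UMIs per 10000 in the shallow, middle and deep groups, with the deep above the shallow in all 6 libraries, and the clusters differ in depth. In oligodendrocytes the groups ran the other way, at 1.77, 1.48 and 1.15.

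**Figure D2:**
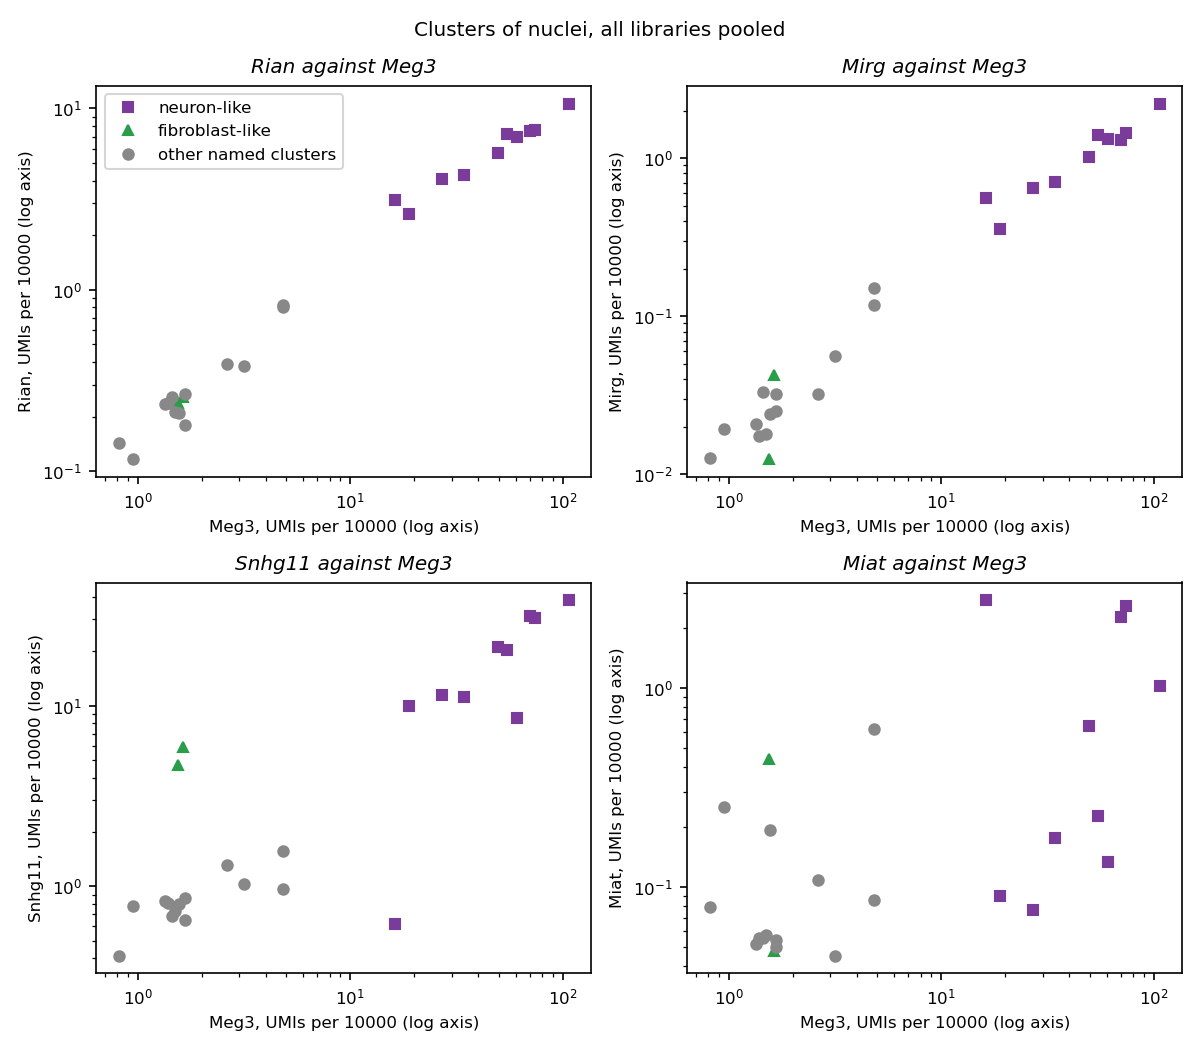
UMIs per 10000 of Rian, Mirg, Snhg11 and Miat against Meg3 (log axes), 1 point per named cluster with all libraries pooled; squares are the 10 neuron-like and triangles the 2 fibroblast-like clusters. Rian and Mirg lie near 1 line with Meg3, while Snhg11 has 1 neuron-like cluster far below (0.619) and the fibroblast-like clusters far above (5.93 and 4.72), and Miat spreads widely among neurons.

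Genes with the most similar pattern were sought over 60 points (10 types in 6 libraries) among 7141 genes, by Pearson's r of log2(CPM + 1). They are a description, since the points share libraries. Malat1 was most like Lama2, a laminin gene (0.873), Tle1, a transcriptional corepressor (0.820), and Add3, an adducin (0.787). Neat1 was most like Baz2b, a bromodomain gene (0.891), Dock5 (0.846) and Tob2 (0.836). Meg3 and Rian shared Ryr2, the ryanodine receptor gene, as first match (0.935 and 0.910), followed by Celf4 (0.932) for Meg3 and the synaptic gene Snap25 (0.906) for Rian. The other first matches were Clstn2 for Mirg (0.844), Ksr2 for Miat (0.874) and Elmod1 for Snhg11 (0.892). Among the members, r was 0.966 between Meg3 and Rian, 0.878 between Meg3 and Mirg, 0.790 between Meg3 and Snhg11, 0.678 between Meg3 and Miat, 0.551 between Malat1 and Neat1 and -0.562 between Neat1 and Meg3.

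The comparisons between groups ask whether either Plcg2 variant, on the 5xFAD background, moved these RNAs within a cell type. The 7 RNAs made 59 testable pairs of gene and cell type in each comparison, leaving out Malat1 in pericytes: 7 of them Miat, 9 Rian and 4 Mirg, the rest too low elsewhere. By edgeR's quasi-likelihood test with Benjamini-Hochberg adjustment over all genes of a type, 0 of 59 pairs passed an adjusted p of 0.05 in each of the 3 comparisons. Among all 112281 pairs of gene and type, 0.00267% passed for 5xFAD-M28L against 5xFAD, 0.0134% for 5xFAD-P522R against 5xFAD and 0.00802% for 5xFAD-P522R against 5xFAD-M28L. At an unadjusted p under 0.05, 10, 18 and 9 pairs passed, where 7.23%, 8.57% and 6.25% of all pairs did; DESeq2 called 1, 3 and 1. For 5xFAD-M28L against 5xFAD, 6 of these pairs were higher, where 3.65% of all pairs were, and 4 lower, where 3.58% were. For 5xFAD-P522R against 5xFAD, 12 were higher, where 4.15% were, and 6 lower, where 4.43% were. For 5xFAD-P522R against 5xFAD-M28L, 5 were higher, where 3.18% were, and 4 lower, where 3.07% were. Both libraries of 5xFAD-M28L lay above both of 5xFAD in 12 of the 59 pairs, where 18.3% of all pairs did. They lay below both in 10, where 18.9% did. Both libraries of 5xFAD-P522R lay above both of 5xFAD in 24 pairs, where 23.6% did, and below both in 11, where 16.7% did. They lay above both of 5xFAD-M28L in 14 pairs, where 21.8% of all pairs did, and below both in 6, where 14.4% did. Each group has 2 libraries that pool mice, so these p-values measure the spread between libraries, and both variants are set against the same 5xFAD libraries.

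Malat1 was lower with either variant in all 9 types other than pericytes. Over the 9 types with a test, the median log2 difference was -0.29 for 5xFAD-M28L and -0.40 for 5xFAD-P522R. Both 5xFAD-M28L libraries lay below both 5xFAD libraries in 8 of the 9 types, where 18.9% of all pairs of gene and type did so, and both 5xFAD-P522R libraries in 7 of 9, where 16.7% did. None passed the adjusted threshold in edgeR's test. The types share their libraries, also with the pericytes whose Malat1 difference led to the choice of the gene. They are thus not separate observations of the groups. The counts of types beside the shares of all pairs are a description and no support for a difference. Between the variants Malat1 had a median log2 difference of -0.02, higher with P522R in 3 of these types and lower in 6.

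The smallest p-values for Malat1 were in glia of 5xFAD-P522R mice. Oligodendrocyte precursors had 215 and 259 UMIs per 10000 in 5xFAD-P522R, against 322 and 318 in 5xFAD libraries. Without overlap between the groups, the log2 difference was -0.48 (SE 0.0929; edgeR adjusted p = 0.379). Astrocytes had 497 and 590 in 5xFAD-P522R, against 731 and 691 in 5xFAD libraries, with a log2 difference of -0.45 (SE 0.0958; edgeR adjusted p = 0.344). The 5xFAD-M28L libraries had 253 and 287 in oligodendrocyte precursors and 544 and 648 in astrocytes, and overlapped the 5xFAD-P522R libraries in both. In oligodendrocytes, the type with the most nuclei, Malat1 had 499 and 587 UMIs per 10000 in 5xFAD-M28L, 519 and 607 in 5xFAD-P522R, and 686 and 660 in 5xFAD libraries.

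In pericyte-like nuclei the groups separated as well, which is given without a test because these values led to the choice of the gene. Malat1 took 575 and 633 UMIs per 10000 in 5xFAD-M28L, 614 and 646 in 5xFAD-P522R, and 885 and 857 in 5xFAD pericytes. All 4 variant libraries lay below both 5xFAD libraries. The log2 differences were -0.57 for 5xFAD-M28L and -0.52 for 5xFAD-P522R, from 35 to 140 nuclei a library. Counted per nucleus the groups overlapped, with 236 and 254 Malat1 UMIs in 5xFAD-M28L, 267 and 266 in 5xFAD-P522R, and 246 and 333 in 5xFAD pericytes. 5xFAD replicate 2 had shallower pericytes (median 2350.5 UMIs) than the other 5 libraries (3345 to 3910), and 5xFAD replicate 3 did not (3515). Markers of the type were present, with 10 of 10 detected in each library.

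Over all named types, Malat1 took 3.78% and 4.42% of UMIs in 5xFAD-M28L, 3.66% and 4.26% in 5xFAD-P522R, and 5.12% and 4.85% in 5xFAD libraries. Per nucleus these were 241 and 253 Malat1 UMIs in 5xFAD-M28L, 251 and 262 in 5xFAD-P522R, and 268 and 323 in 5xFAD libraries, and on both scales all 4 variant libraries lay below both 5xFAD libraries. Within the cell types, counts per nucleus did not separate the 4 variant libraries from both 5xFAD libraries in any of the 10 types. Oligodendrocytes had 215 and 245 Malat1 UMIs per nucleus in 5xFAD-M28L, 231 and 251 in 5xFAD-P522R, and 221 and 299 in 5xFAD libraries. UMIs of all other genes per nucleus were 6127 and 5459 in 5xFAD-M28L, 6609 and 5890 in 5xFAD-P522R, and 4956 and 6332 in 5xFAD libraries. Mitochondrial transcripts took 0.0161% and 0.0149% of UMIs in 5xFAD-M28L, 0.0135% and 0.0122% in 5xFAD-P522R, and 0.0134% and 0.0170% in 5xFAD libraries. Transcripts of cytosolic ribosomal proteins took 0.0402% and 0.0409% in 5xFAD-M28L, 0.0378% and 0.0360% in 5xFAD-P522R, and 0.0481% and 0.0425% in 5xFAD libraries. Over all named types, all 4 variant libraries thus lay below both 5xFAD libraries. Within types this held in oligodendrocyte-like and neuron-like nuclei only. In pericytes these transcripts took 0.0679% and 0.0660% in 5xFAD-M28L, 0.0601% and 0.0527% in 5xFAD-P522R, and 0.0797% and 0.0474% in 5xFAD libraries. Fewer Malat1 molecules and more RNA of other genes cannot be told apart from a share alone, and the part of nuclear depth and RNA quality was not tested.

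**Figure D3:**
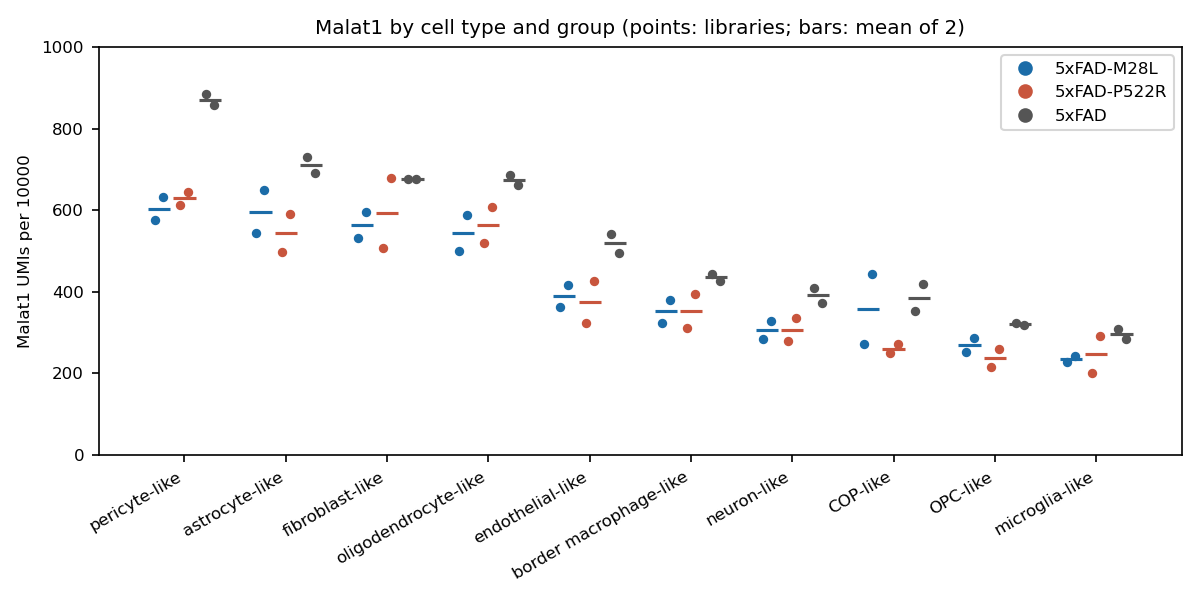
Malat1 UMIs per 10000 in 10 cell types (linear axis from 0), with points for libraries and bars for the mean of the 2 libraries of a group. In pericyte-like nuclei the 5xFAD-M28L and 5xFAD-P522R libraries sit between 575 and 646, below the 5xFAD libraries at 857 and 885, and the variant groups have lower means than 5xFAD in each type.

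Neat1 was higher with P522R in most types. Against 5xFAD it was higher in 8 of 10 types, with a median log2 difference of 0.45. Both 5xFAD-P522R libraries lay above both 5xFAD libraries in 7 of 10, where 23.6% of all pairs of gene and type did so. They lay below both in 2 of 10, where 16.7% of all pairs did. With M28L Neat1 was higher in 7 of 10 types, with a median of 0.13. Both 5xFAD-M28L libraries lay above in 3 of 10, where 18.3% of all pairs did so, and below in 0, where 18.9% did. The smallest p-value with M28L was in astrocytes, which had 3.99 and 3.55 Neat1 UMIs per 10000 in 5xFAD-M28L, against 2.89 and 2.64 in 5xFAD libraries. The groups did not overlap, and the log2 difference was 0.46 (SE 0.0999; edgeR adjusted p = 0.534).

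Microglia and pericytes had the smallest p-values for Neat1 between the variants. Microglia had 3.58 and 4.63 UMIs per 10000 in 5xFAD-P522R, against 2.02 and 1.91 in 5xFAD-M28L and 1.85 and 2.92 in 5xFAD libraries. Both P522R libraries stood above the other 4; against 5xFAD-M28L the log2 difference was 1.05 (SE 0.222; edgeR adjusted p = 0.233). Pericytes had 5.44 and 4.23 in 5xFAD-P522R, against 3.61 and 2.35 in 5xFAD-M28L and 2.65 and 2.81 in 5xFAD libraries, with a log2 difference from 5xFAD-M28L of 0.69 (SE 0.235; edgeR adjusted p = 0.419). Neither passed the adjusted threshold.

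Transcripts of oligodendrocytes, where Neat1 is highest, were also higher with P522R in many types. Of 10 abundant oligodendrocyte transcripts, in 100 pairs of gene and type, 0 rose and 0 fell by edgeR's test with Benjamini-Hochberg adjustment. At an unadjusted p under 0.05 there were 10 pairs for 5xFAD-M28L against 5xFAD, 51 for 5xFAD-P522R against 5xFAD and 34 for 5xFAD-P522R against 5xFAD-M28L, beside 7.23%, 8.57% and 6.25% of all pairs. For 5xFAD-P522R against 5xFAD the median log2 difference of the list was 1.39 in microglia, 0.90 in pericytes, 0.72 in oligodendrocyte precursors, 0.69 in neurons and 0.63 in astrocytes, where Neat1 was higher too, and -0.22 in endothelial nuclei, where Neat1 was lower. In fibroblasts it was 0.80, with Neat1 lower, and in committed oligodendrocyte precursors -0.17, with Neat1 higher. The part of these transcripts in the Neat1 differences was not tested. The 10 oligodendrocyte markers, another list, together had 14.6 and 34.6 UMIs per 10000 in microglia of 5xFAD-P522R, against 8.17 and 9.43 in 5xFAD-M28L and 7.88 and 11.5 in 5xFAD libraries. In pericytes they had 34.5 and 22.0 in 5xFAD-P522R, against 14.8 and 15.0 in 5xFAD-M28L and 12.9 and 18.02 in 5xFAD libraries. Microglia of 5xFAD-P522R without any UMI of these markers, 54 and 60 nuclei, had 3.01 and 2.40 Neat1 UMIs per 10000 (53 and 45 UMIs), against 2.37 and 1.57 in 5xFAD-M28L and 1.51 and 2.32 in 5xFAD nuclei of the same kind. The ratio of 5xFAD-P522R to 5xFAD-M28L was thus 2.09 in all microglia and 1.37 in these nuclei, a comparison chosen after seeing the data. Both 5xFAD-P522R libraries still lay above the other 4 in these nuclei, the lower of them (2.40) next to the highest of the others (2.37). These nuclei were 3.61% (5xFAD-P522R replicate 3) to 19.9% (5xFAD replicate 2) of a library's microglia, and shallower by median than all its microglia. Pericytes without these markers had 1.66 and 2.86 in 5xFAD-P522R, 2.24 and 1.35 in 5xFAD-M28L, and 2.03 and 1.86 in 5xFAD libraries. The groups overlapped there, on 2 to 19 Neat1 UMIs a library.

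**Figure D4:**
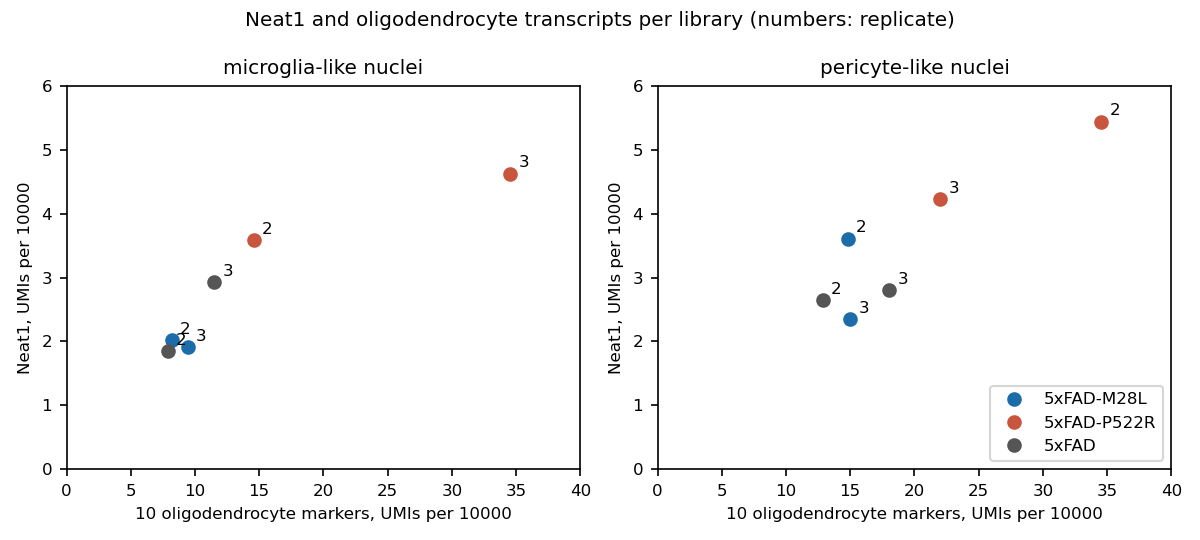
Neat1 against the sum of 10 oligodendrocyte markers, both as UMIs per 10000, in microglia-like (left) and pericyte-like nuclei (right), 1 point per library, numbered by replicate. The 5xFAD-P522R libraries have the most of both in microglia (14.6 and 34.6 for the markers) and in pericytes (34.5 and 22.0).

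Meg3 in oligodendrocytes had the smallest p-value of all members for P522R. It had 1.61 and 1.72 UMIs per 10000 in 5xFAD-P522R, against 1.35 and 1.26 in 5xFAD-M28L and 1.15 and 1.22 in 5xFAD libraries. The log2 difference was 0.48 (SE 0.0758) from 5xFAD (edgeR adjusted p = 0.25) and 0.32 (SE 0.0755) from 5xFAD-M28L (edgeR adjusted p = 0.566), and the P522R libraries were above the other 4. The 15 neuronal transcripts in the same nuclei had 13.6 and 15.7 UMIs per 10000 in 5xFAD-P522R, against 13.4 and 11.8 in 5xFAD-M28L and 11.1 and 11.7 in 5xFAD libraries. Per 100 of these, Meg3 stood at 11.85 and 10.98 in 5xFAD-P522R, against 10.1 and 10.7 in 5xFAD-M28L and 10.3 and 10.4 in 5xFAD libraries. Over 10 types the neuronal list made 144 pairs, and 0 rose and 0 fell by edgeR's adjusted test. For 5xFAD-P522R against 5xFAD, 42 had an unadjusted p under 0.05, where 8.57% of all pairs did. The list's median log2 differences by type then lay between -0.311 and 1.32, and its part in the Meg3 differences was not tested.

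In endothelial nuclei Meg3 had 5.97 and 1.72 UMIs per 10000 in 5xFAD-M28L, against 1.47 and 1.82 in 5xFAD libraries. The groups overlapped, and the log2 difference of 1.25 (SE 0.466; edgeR adjusted p = 1.00) rested on 5xFAD-M28L replicate 2. With P522R, endothelial Meg3 had 6.27 and 3.22 in 5xFAD-P522R, both above the same 5xFAD libraries, and the log2 difference was 1.55 (SE 0.478; edgeR adjusted p = 0.694). The 15 neuronal transcripts in these nuclei had 18.5 and 15.97 UMIs per 10000 in 5xFAD-M28L, 54.8 and 14.1 in 5xFAD-P522R, and 16.4 and 19.6 in 5xFAD libraries. Their part in the Meg3 values was not tested. In neurons, where Meg3 is abundant, the log2 differences from 5xFAD were 0.15 (SE 0.125) for 5xFAD-M28L and 0.16 (SE 0.125) for 5xFAD-P522R, and neither group was clear of the 5xFAD libraries.

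The other members had small differences where they are abundant. Mirg in neurons had 1.47 and 1.53 UMIs per 10000 in 5xFAD-M28L, against 1.16 and 1.32 in 5xFAD libraries, a log2 difference of 0.25 (SE 0.0841; edgeR adjusted p = 0.617). Rian in neurons had 7.56 and 7.36 in 5xFAD-M28L, 7.49 and 7.22 in 5xFAD-P522R, and 6.95 and 7.12 in 5xFAD libraries, with log2 differences of 0.06 and 0.02 (SE 0.0723 and 0.0722). Snhg11 in fibroblasts differed from 5xFAD by -0.10 (SE 0.159) with M28L and 0.12 (SE 0.164) with P522R on the log2 scale. Miat in oligodendrocyte precursors differed by 0.23 (SE 0.127) and 0.07 (SE 0.128), with the groups overlapping in both cases. A difference of this size that misses the threshold does not show that the groups are alike.

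**Figure D5:**
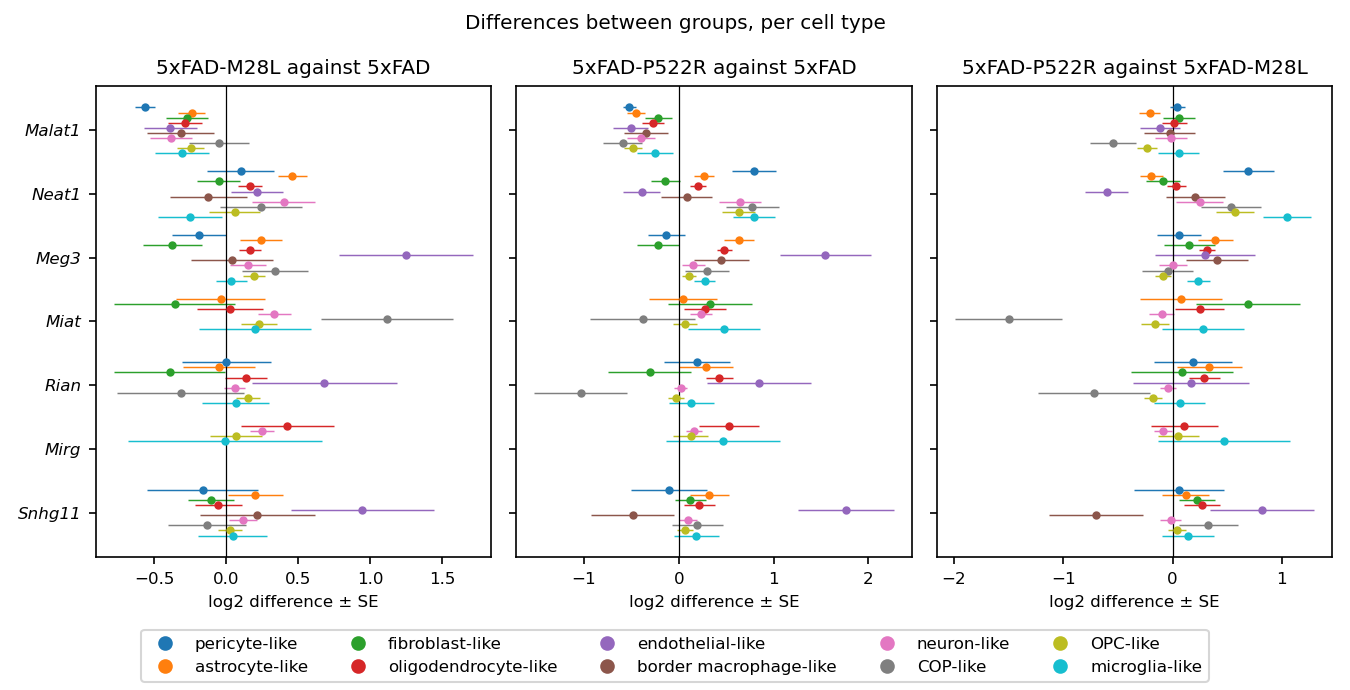
Log2 differences with SE of the 7 RNAs in each cell type, from edgeR, for 5xFAD-M28L against 5xFAD, 5xFAD-P522R against 5xFAD and 5xFAD-P522R against 5xFAD-M28L; colours mark cell types. Malat1 lies left of 0 in all types for both variants, pericytes included, whose Malat1 values led to its choice and carry no test. Neat1 and Meg3 lie right of 0 in 8 of 10 types for 5xFAD-P522R against 5xFAD.

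Female and male nuclei were compared within the 6 libraries, in 5 types and 33 pairs of gene and type. By edgeR's quasi-likelihood test 0 of 33 passed an adjusted p of 0.05, where 0.056% of all 58897 pairs did; 1 had an unadjusted p under 0.05, where 6.25% of all pairs did, and DESeq2 called 0. That pair was Malat1 in astrocytes, at 563 ± 164 UMIs per 10000 in female and 641 ± 59.8 in male nuclei (SD, n = 6 libraries). Its log2 difference was -0.28 (SE 0.112; edgeR adjusted p = 1.00), and female nuclei were lower in 4 of 6 libraries.

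The partners of these RNAs were read from lists of genes. Of 20 paraspeckle proteins, in 187 pairs of gene and type, 0 rose and 0 fell in each comparison by edgeR's test with Benjamini-Hochberg adjustment, and 15, 11 and 3 pairs had an unadjusted p under 0.05 for 5xFAD-M28L against 5xFAD, 5xFAD-P522R against 5xFAD and 5xFAD-P522R against 5xFAD-M28L, where 7.23%, 8.57% and 6.25% of all pairs did. Pspc1, a core paraspeckle protein, had a log2 difference of -0.35 (edgeR adjusted p = 0.313) in oligodendrocyte precursors with M28L. Of 20 speckle and splicing proteins, in 198 pairs, 0 rose and 0 fell, with 21, 10 and 8 pairs at an unadjusted p under 0.05, beside the same 7.23%, 8.57% and 6.25% of all pairs; the splicing factor Srsf7 had -0.32 (edgeR adjusted p = 0.393) in oligodendrocytes with P522R. The medians of these lists per cell type lay between -0.105 and 0.130 on the log2 scale.

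Of 12 other genes in and around the Dlk1-Dio3 region, in 61 pairs, 0 rose and 0 fell, with 8, 7 and 1 at an unadjusted p under 0.05, beside 7.23%, 8.57% and 6.25% of all pairs. Rtl1, the retrotransposon-derived gene read from the paternal copy, had -0.73 (edgeR adjusted p = 0.482) in neurons with P522R. Of 30 other noncoding RNAs, in 219 pairs, 0 rose and 0 fell, with 20, 33 and 28 at an unadjusted p under 0.05, beside 7.23%, 8.57% and 6.25% of all pairs. Dlx6os1, an RNA of inhibitory neurons, had -0.67 (edgeR adjusted p = 0.228) in neurons with P522R, and Rmst, an RNA known from neural progenitors, -4.71 (edgeR adjusted p = 0.0685) in pericytes for 5xFAD-P522R against 5xFAD-M28L. Among 10 astrocyte transcripts, in 98 pairs, 0 rose and 1, 2 and 3 fell, such as Slc1a2, the glutamate transporter, in pericytes (-2.69, edgeR adjusted p = 0.0239, 5xFAD-P522R against 5xFAD-M28L). The part of these transcripts in the members' differences was not tested.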

How the data were processed

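The authors deposited raw UMI counts per gene and barcode for 6 libraries, with Cell Ranger 6.1.2 and mm10 named in the submitters' processing notes; per the file headers, 1 library was made with 5.0.1. Filters required 500 UMIs, 300 genes and a mitochondrial share of 5% or less; doublets called with Scrublet at 1 common threshold (its automatic one had failed in both 5xFAD-P522R libraries) were removed, and nuclei were clustered with scanpy 1.11.5 without the 7 genes (2000 variable genes, 30 principal components, 20 neighbours, Leiden resolution 1). Clusters were named from marker lists. The members, markers and lists were chosen with earlier results of these data known.

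Counts were summed per library and cell type and tested with edgeR 4.0.16 (quasi-likelihood F-test, TMM, minimum count of 10, all 6 libraries in 1 fit), with Benjamini-Hochberg adjustment over the genes of a type and a threshold of 0.05; DESeq2 1.42.0 was an alternative. Nuclei were called female or male from Xist and Y-linked UMIs. Named pairs of gene and type are those past the threshold, otherwise the 3 with the smallest p in each comparison. In counts simulated for 5xFAD-P522R against 5xFAD, the test recovered 53% of 100 2-fold changes in microglia-like nuclei (13720 genes) and 36% in pericyte-like nuclei (6141 genes). Libraries held 53326947 to 72288942 UMIs. An exact permutation test of 2 libraries against 2 cannot go below p = 0.333. One sequence is not reported here.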

Additional observations from a re-analysis of the deposited data

Results flagged for a closer look

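Neat1 differed in direction between cell types for 5xFAD-P522R against 5xFAD-M28L. Both 5xFAD-P522R libraries lay above both 5xFAD-M28L libraries in 4 of 10 types, where 21.8% of all pairs of gene and type did so. They lay below both in 1 type, where 14.4% of all pairs did. The types above included microglia-like (log2 difference 1.05), pericyte-like (0.693) and oligodendrocyte precursor-like nuclei (0.573). The type below was endothelial cell-like nuclei (-0.603). In oligodendrocyte precursors Neat1 had 0.919 and 0.671 UMIs per 10000 in 5xFAD-P522R, against 0.430 and 0.618 in 5xFAD-M28L libraries. The 10 oligodendrocyte markers in these precursors had 7.44 and 7.32 UMIs per 10000 in 5xFAD-P522R, against 4.41 and 7.16 in 5xFAD-M28L libraries. In precursors without a UMI of these markers, a comparison chosen after seeing the data, Neat1 had 0.272 and 0.534 in 5xFAD-P522R (9 and 10 UMIs), against 0.363 and 0.398 in 5xFAD-M28L (19 and 11 UMIs), and the groups overlapped. In endothelial nuclei it had 3.24 and 3.02 in 5xFAD-P522R, against 4.71 and 4.49 in 5xFAD-M28L libraries. The 10 oligodendrocyte markers in endothelial nuclei had 11.5 and 11.9 UMIs per 10000 in 5xFAD-P522R, against 5.02 and 15.6 in 5xFAD-M28L libraries. The difference between the cell types was not tested.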

How the results depend on the processing

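Of 63 counts of members called under another setting, 50 kept the main value and 13 were higher; no named log2 difference changed its sign. Against 0 calls in each comparison, omitting the low-count filter gave 6 calls for 5xFAD-M28L against 5xFAD and 14 for 5xFAD-P522R against 5xFAD. It gave 6 for 5xFAD-P522R against 5xFAD-M28L and 1 between the sexes. Calls over all genes were then 1.12%, 1.76%, 0.947% and 0.314% of pairs, in the same order. DESeq2 gave 1, 3 and 1 member calls (Neat1 in astrocytes; Meg3 in oligodendrocytes and Malat1 in astrocytes and oligodendrocyte precursors; Neat1 in microglia), and 0.165%, 0.207% and 0.196% of all pairs. Leaving out 1 library in turn gave 0 to 2 calls for 5xFAD-P522R against 5xFAD (1 without 5xFAD replicate 2, 2 without 5xFAD replicate 3) and 0 to 1 for 5xFAD-P522R against 5xFAD-M28L (1 without 5xFAD-P522R replicate 2), where the lone library is assumed to vary like the other groups. The cause was not tested.

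With the replicate number as a block, 3, 8 and 2 members were called, while 1.75%, 2.10% and 0.611% of all pairs were. Nothing in the labels pairs the samples, and each comparison has 2 numbers. Deviations of same-numbered libraries correlated at 0.108 to 0.417 in the 5 largest types, for all 3 pairings, and at -0.0909 to 0.222 in the other 5.

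Of 703 mean levels under another setting, 9 moved by over 1 SD, such as Meg3 in neurons (57.8 UMIs per 10000 as a mean over nuclei), Neat1 in oligodendrocyte precursors (1.07 with doublets kept) and Neat1 in 5xFAD-P522R microglia (2.70 in nuclei with no oligodendrocyte marker UMI, chosen after seeing the data). Small nuclei numbers limit endothelial cells and pericytes.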

Other observations

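An unnamed cluster of 921 nuclei with a median of 606 UMIs had 498 Malat1, 13.6 Neat1 and 10.0 Meg3 UMIs per 10000 over all libraries. Neat1 was higher in both 5xFAD-P522R libraries than in the other 4 libraries in each of the 5 microglia clusters of the finer clustering. In 1 of them it had 2.17 and 2.28 UMIs per 10000 in 5xFAD-P522R, against 1.33 to 1.53 in the others. The clusters split nuclei of the same libraries, so they are not separate observations. In microglia as a whole, 19.4% of tested genes lay above both 5xFAD libraries in both 5xFAD-P522R libraries, and 25.4% above both 5xFAD-M28L libraries. The share above all other 4 libraries was not counted. Oligodendrocyte markers were also higher in microglia of 5xFAD-P522R (14.6 and 34.6 UMIs per 10000, against 7.88 to 11.5), and their part was not tested.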
